A study of Mus musculus with 48 samples.

Results

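The mouse cytochrome P450 genes of families 1 to 4 were followed in the livers of mice put through timed sleep restriction (TSR). Members were all genes of the liver signal table whose symbol starts with Cyp, then a digit of 1 to 4, a subfamily letter and a number. This rule found 70 genes, read by 74 probe sets, among 21399 genes with a symbol. Where a gene had several probe sets, that with the highest mean signal stood for it. Male Bl6J mice of 10 to 12 weeks were kept awake by gentle handling between Zeitgeber time (ZT, hours after lights on) 0 and 6. This was done for 5 days, followed by 2 days of free sleep and up to 5 more days of handling. Control mice of the same strain, sex and age were left undisturbed. By the study's methods, killing began in the evening before the last handling day. Days of handling can thus differ between time points and cannot be told apart from time of day. Livers of 3 TSR mice and 3 control mice were taken at each of ZT1, ZT7, ZT13 and ZT19, and each of the 24 livers was read on 1 Affymetrix Mouse Gene 1.0 ST array. The study's methods give a wider age range than the labels do. No gene was altered or drug given in either group, and food and water were freely available. Control mice were not handled, so handling and loss of sleep cannot be told apart. ZT1 falls within the daily handling hours and ZT7 soon after them.

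P450 enzymes are haem proteins that insert an oxygen atom into their substrates and take electrons from P450 reductase (Por) and cytochrome b5. Families 1 to 3 are best known for the clearance of drugs, toxins and steroids, and many of their genes are induced through the aryl hydrocarbon receptor (AHR), the constitutive androstane receptor (CAR, Nr1i3) or the pregnane X receptor (PXR, Nr1i2). Family 4 enzymes hydroxylate fatty acids and eicosanoids, and the Cyp4a genes are classical targets of the fatty acid receptor PPAR alpha. In liver, the PAR bZIP factors Dbp, Tef and Hlf carry the daily rhythm of the clock to detoxification genes, and several mouse P450 genes differ between the sexes.

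The arrays of both groups had similar overall signal. The median signal over all probe sets was between 88.96 and 108.8 in TSR arrays and between 84.54 and 100.9 in control arrays. The summed signal of the 70 members was 127217 to 142250 in TSR arrays and 124889 to 141982 in control arrays. TSR ZT1 replicate 3, control ZT7 replicate 3 and the 3 control arrays of ZT19 stood apart from the other 19 arrays, with the 5 highest scores on the first principal component of all tested probe sets (24 to 31.6, against -22.3 to 21.5). All tests were also run without them, which for ZT19 means leaving out that time point, and calls of members lost in that run are named beside the result. All 8 hepatocyte markers were detected, and 4 of them (Alb, Apoa1, Ttr and Serpina1a) were higher in TSR livers, by 0.15 to 0.19 on the log2 scale. Cps1, Tat, Apob and Hnf4a differed by -0.01 to 0.08 and did not pass. The summed signal of all 8 was 64744 to 77572 in TSR arrays and 61595 to 71334 in control arrays. Of tested markers of other cells, 2 of 6 endothelial, 2 of 6 stellate and 2 of 5 blood genes were higher in TSR livers. Krt8, the only tested gene of the mesothelial list, was higher too (0.34). Upk3b, Msln, Wt1 and Lrrn4 of that list were below the filter, so a mesothelial change cannot be read from it. Of the tested Kupffer cell and macrophage markers 0 of 6 passed, of cholangiocyte markers 0 of 3, and of adipocyte and pancreatic acinar markers 0 of 1 each. Among all tested probe sets 13.8% were higher and 13.2% lower in TSR livers. The part of these markers in the differences given here was not tested. Pancreatic acinar markers summed to 10422 in TSR ZT19 replicate 3, against at most 1096 in any other array. In whole liver, fewer cells of a type and less RNA per cell cannot be told apart. The array numbers in the labels run in separate blocks for TSR and control samples, so anything those blocks mark cannot be told apart from TSR.

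Of the 70 members, 42 had a geometric mean signal over the liver arrays that exceeded 95.1, the median of that mean over all probe sets, and they were tested together with all other such probe sets (12814 in all). The remaining 28 members had mean signals of 4.67 to 91.6, and they included 2 of 3 family 1 genes, 18 of 45 family 2 genes, 2 of 7 family 3 genes and 6 of 15 family 4 genes. Signals of different probe sets depend on their probes, so levels were compared between groups and times and not between genes. Many members have near-identical copies, above all in the Cyp2c, Cyp2d, Cyp3a and Cyp4a subfamilies, and a probe set named for one gene may also read its neighbours. Every difference below is the log2 signal in TSR livers minus that in control livers, from a limma fit of the 8 groups, with its SE after ±, Benjamini-Hochberg adjusted p-values over all 12814 probe sets and a threshold of 0.05.

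Averaged over the 4 time points, 16 of the 42 tested members passed the test (38.1%), with 10 higher and 6 lower in TSR livers. Among all tested probe sets 27.0% passed, 13.8% higher and 13.2% lower, and the median difference was 0.09 over the members and 0.02 over all probe sets. With quantile normalized arrays the members split into 9 higher and 8 lower, and the share of all calls that were higher went to 34.7%, against 51.2% in the authors' scaling. The genes that rose were Cyp4a31, Cyp4a10, Cyp2c68, Cyp2d10, Cyp2c54, Cyp2c37, Cyp2c67, Cyp4f13, Cyp2d9 and Cyp2c40, and those that fell were Cyp2u1, Cyp2c55, Cyp2j6, Cyp4a12a, Cyp4a12b and Cyp2a12. Both directions occurred within families 2 and 4, and the plot of mean differences by subfamily shows rises and falls side by side within Cyp2c and Cyp4a. Differences over all tested members lay between -0.50 and 0.83, with a median SE of 0.056.

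**Figure D1:**
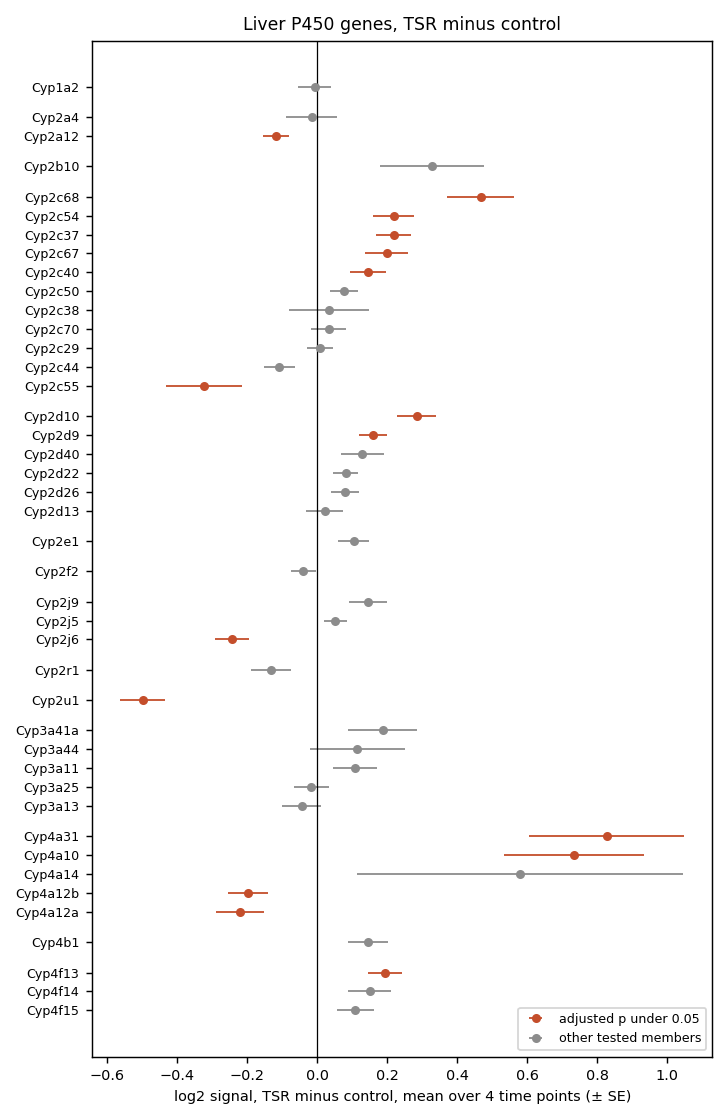
Difference in log2 signal between TSR and control livers, averaged over 4 time points, for the 42 tested P450 genes grouped by subfamily; points give the limma estimate, bars 1 SE, and orange points the 16 genes with an adjusted p under 0.05. Cyp4a31 and Cyp4a10 lie farthest to the right at 0.83 and 0.73, and Cyp2u1 farthest to the left at -0.50.

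Within the Cyp4a subfamily, whose enzymes hydroxylate fatty acids, the PPAR alpha targets and the Cyp4a12 pair moved in opposite directions. Cyp4a31 signal ranged between 201 and 919.6 (median 637) in TSR arrays, and between 177 and 641 (median 303) in control arrays. Its mean difference was 0.83 ± 0.22 (adjusted p = 0.0105), and 11 of 12 TSR livers lay above the control median. Cyp4a10 ranged between 693 and 2780.1 (median 1963) in TSR arrays, and between 584 and 1869 (median 1024) in control arrays, a difference of 0.73 ± 0.20 (adjusted p = 0.0117). For both genes the only TSR liver below the control median was ZT19 replicate 2, with 693 for Cyp4a10 and 201 for Cyp4a31. The highest control liver was ZT19 replicate 2 as well. The groups overlapped, with 7 of 12 TSR livers above every control liver for Cyp4a10 and 6 of 12 for Cyp4a31. A second Cyp4a10 probe set gave a mean difference of 0.61 (adjusted p = 0.0139). Cyp4a14, the third PPAR alpha target of the subfamily, ranged between 94.8 and 1377 (median 298) in TSR arrays and between 51 and 707 (median 215) in control arrays. Its difference of 0.58 ± 0.47 did not pass (adjusted p = 0.368), and its spread within groups was 1.27 on the log2 scale (SD), against 0.54 for Cyp4a10.

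The Cyp4a12a and Cyp4a12b genes, which are male-biased in mouse liver and make the main arachidonic acid hydroxylases of that sex, were lower in TSR livers. Cyp4a12a ranged between 3548 and 5755 (median 4645) in TSR arrays and between 4417 and 6219 (median 5383) in control arrays, a difference of -0.22 ± 0.068 (adjusted p = 0.0222). Cyp4a12b ranged between 3574 and 5386 (median 4612) in TSR arrays and between 4444 and 5744 (median 5179.7) in control arrays (-0.20 ± 0.057; adjusted p = 0.0165). Of 12 TSR livers, 10 were below the control median for each gene. The 2 probe sets belong to near-identical genes and are not independent readings. Without TSR ZT1 replicate 3, control ZT7 replicate 3 and all ZT19 arrays (the arrays that stood apart, with their time point), neither passed, with adjusted p = 0.087 for Cyp4a12a and adjusted p = 0.0698 for Cyp4a12b.

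**Figure D2:**
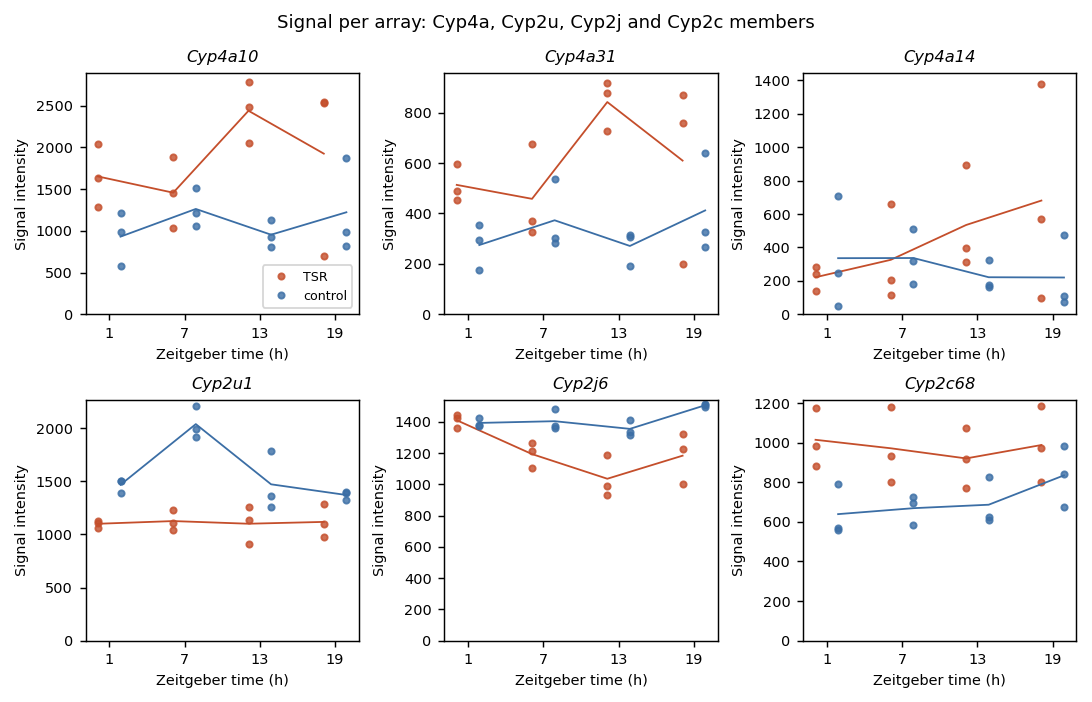
Signal intensity of 6 P450 genes in every liver array by Zeitgeber time (h); each point is 1 liver, orange for TSR and blue for control, drawn to the left and right of the sampling time, with lines through the group means of 3. Cyp2u1 lay lower in 11 of 12 TSR livers than in any control liver, and Cyp4a10 and Cyp4a31 separated fully at ZT1 and ZT13.

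The Cyp2c genes, a cluster on chromosome 19 whose enzymes epoxidise and hydroxylate arachidonic acid and clear many drugs, held 6 of the 16 calls among 11 tested genes. Of all tested members 38.1% passed, and of all probe sets 27.0%. Cyp2c68 had the highest difference of the cluster: it ranged between 770.4 and 1188 (median 955) in TSR arrays and between 557 and 987 (median 686) in control arrays. The difference was 0.47 ± 0.096 (adjusted p = 0.00194), and all 12 TSR livers lay above the control median. Cyp2c54 ranged between 2543 and 4024 (median 3314) in TSR arrays and between 2291 and 3377 (median 2933) in control arrays (0.22 ± 0.059; adjusted p = 0.011). Cyp2c37 rose by about as much, with a difference of 0.22 ± 0.051 (adjusted p = 0.00437) and 8 of 12 TSR livers above every control liver. Cyp2c67 differed by 0.20 ± 0.061 (adjusted p = 0.0212) and Cyp2c40, a female-biased gene, by 0.15 ± 0.052 (adjusted p = 0.0439).

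Cyp2c55, an inducible member of the cluster with a known role in gut and liver metabolism of arachidonic acid, went the other way. It ranged between 281 and 606 (median 406) in TSR arrays and between 398 and 704 (median 493) in control arrays, a difference of -0.32 ± 0.11 (adjusted p = 0.0338). Cyp2c44, an epoxygenase of arachidonic acid, ranged between 5065 and 7237 (median 6829) in TSR arrays and between 6647 and 7787 (median 7059) in control arrays, a difference of -0.11 ± 0.044 that did not pass (adjusted p = 0.0728) but did with quantile normalized arrays (-0.16, adjusted p = 0.0117). The remaining 4 tested Cyp2c genes (Cyp2c29, Cyp2c38, Cyp2c50 and Cyp2c70) had differences of 0.01 to 0.08, with that of Cyp2c29 at -0.04 after quantile normalization. The call of Cyp2c40 was lost without any 1 of TSR ZT1 replicates 2 and 3, TSR ZT7 replicates 2 and 3, TSR ZT13 replicate 3, TSR ZT19 replicate 1, control ZT1 replicates 2 and 3, control ZT7 replicates 1 and 3, control ZT13 replicates 1 and 3 and control ZT19 replicate 3 (adjusted p 0.0562 to 0.086). The call of Cyp2c55 was lost without any 1 of TSR ZT1 replicates 1 and 3, TSR ZT7 replicate 3, TSR ZT13 replicate 3, TSR ZT19 replicate 1, control ZT1 replicates 1 and 2, control ZT7 replicate 3, control ZT13 replicate 3 and control ZT19 replicate 2 (adjusted p 0.0518 to 0.0672). Without the arrays that stood apart, the adjusted p was 0.138 for Cyp2c40 and 0.38 for Cyp2c55, and with quantile normalized arrays that of Cyp2c40 was 0.152.

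All 6 tested genes of the Cyp2d cluster on chromosome 15, the mouse counterparts of human CYP2D6, had a difference above 0. Of all 42 tested members, 29 had a difference above 0. With quantile normalized arrays 5 of the 6 Cyp2d genes were above 0 and Cyp2d13 was at -0.01. In the authors' scaling 2 of the 6 passed, where 27.0% of all probe sets did. Cyp2d10 ranged between 2911 and 4257 (median 3374) in TSR arrays and between 2168 and 3174 (median 2904) in control arrays. The difference was 0.29 ± 0.056 (adjusted p = 0.00137), and 10 of 12 TSR livers lay above every control liver. Cyp2d9, a male-biased steroid 16-alpha-hydroxylase, ranged between 3637 and 4765 (median 4013) in TSR arrays and between 3073 and 4104 (median 3619) in control arrays (0.16 ± 0.041; adjusted p = 0.0074), with all 12 TSR livers above the control median. Cyp2d40, Cyp2d22, Cyp2d26 and the transcribed pseudogene Cyp2d13 differed by 0.02 to 0.13. Of the hepatocyte markers, Alb, Apoa1, Ttr and Serpina1a differed by 0.15 to 0.19 and passed. Cps1, Tat, Apob and Hnf4a differed by -0.01 to 0.08 and did not pass. The part of these markers in the Cyp2d differences was not tested.

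Cyp2u1 had the lowest difference and the smallest adjusted p of the tested members. The gene encodes an enzyme that hydroxylates long-chain fatty acids, and it is the only member on chromosome 3. Its signal ranged between 910.2 and 1285 (median 1109) in TSR arrays and between 1260.1 and 2207 (median 1455) in control arrays. Of 12 TSR livers, 11 were below every control liver, and the difference was -0.50 ± 0.064 (adjusted p = 8.33e-05), or 1.41-fold lower. The call held under all 34 alternative settings run for it, with adjusted p-values of at most 0.00171.

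Of the Cyp2j genes, epoxygenases of arachidonic and linoleic acid on chromosome 4, 3 of 6 were tested and they behaved differently. Cyp2j6 ranged between 932 and 1445 (median 1220.5) in TSR arrays and between 1319.6 and 1514 (median 1395) in control arrays, a difference of -0.24 ± 0.048 (adjusted p = 0.00155), with 8 of 12 TSR livers below every control liver. Cyp2j5, which is highly expressed in liver and kidney, ranged between 5673 and 6449 (median 6105) in TSR arrays and between 5547 and 6207 (median 5816) in control arrays and did not pass (0.05 ± 0.033; adjusted p = 0.255). Cyp2j9 averaged 329.7 in TSR arrays and 292.1 in control arrays and just missed the threshold (0.14 ± 0.054; adjusted p = 0.0506). Its differences at the single times had both signs and are given below.

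Cyp2e1, Cyp1a2 and Cyp2f2, P450 genes that mark the zones of the liver lobule, did not pass on average. Cyp2e1, which oxidises ethanol and marks cells near the central vein, ranged between 8894 and 11621 (median 10278) in TSR arrays and between 8597 and 10552 (median 9130.4) in control arrays (0.10 ± 0.043; adjusted p = 0.0773). Cyp1a2, the caffeine-oxidising enzyme of the same zone, ranged between 4650.5 and 5972 (median 5598) in TSR arrays and between 5099 and 6085 (median 5274) in control arrays (-0.01 ± 0.047; adjusted p = 0.925). Cyp2f2, which marks cells near the portal vein, ranged between 7861 and 9335 (median 8634) in TSR arrays and between 8138 and 9872 (median 8663) in control arrays (-0.04 ± 0.035; adjusted p = 0.419). For each of these 3 genes the groups overlapped. With quantile normalized arrays the Cyp2e1 difference was -0.01 (adjusted p = 0.923). The Cyp2f2 difference was -0.12 with quantile normalized arrays (adjusted p = 0.0176) and 0.04 without TSR ZT1 replicate 3, control ZT7 replicate 3 and all ZT19 arrays (adjusted p = 0.552). The 95% interval of the difference, not adjusted for the number of probe sets, was 0.01 to 0.19 for Cyp2e1, -0.10 to 0.09 for Cyp1a2 and -0.11 to 0.03 for Cyp2f2. Of the 8 members known as pericentral, 1 (Cyp2c54) passed, where 27.0% of all probe sets did, and their median difference was 0.09.

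The 5 tested Cyp3a genes, on chromosome 5, include Cyp3a11, the main PXR-induced steroid and drug hydroxylase of mouse liver. Cyp3a11 ranged between 4535 and 6359.8 (median 5219) in TSR arrays and between 4129.8 and 6127 (median 4751) in control arrays (0.11 ± 0.064; adjusted p = 0.215). Cyp3a25 ranged between 4373 and 6534 (median 5637) in TSR arrays and between 4215 and 7061 (median 5493) in control arrays (-0.02 ± 0.05; adjusted p = 0.822). Cyp3a41a, a female-biased gene, ranged between 1487 and 2526 (median 1884) in TSR arrays and between 1282 and 2598 (median 1626) in control arrays (0.19 ± 0.099; adjusted p = 0.164). The adjusted p-values of the 5 genes lay between 0.164 and 0.822, and the groups overlapped over the 12 arrays of each. Without TSR ZT1 replicate 3, control ZT7 replicate 3 and all ZT19 arrays, Cyp3a11 (0.23, adjusted p = 0.0326) and Cyp3a41a (0.44, adjusted p = 0.011) were higher in TSR livers. A second Cyp3a41a probe set was higher at ZT13 (0.54, adjusted p = 0.049).

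Cyp4f13 was the one Cyp4f gene to pass on average. These enzymes inactivate leukotrienes by hydroxylating their fatty chain. It ranged between 823 and 1129 (median 944) in TSR arrays and between 713 and 971 (median 852) in control arrays, a difference of 0.19 ± 0.048 (adjusted p = 0.00711). Cyp4f14 (0.15 ± 0.06; adjusted p = 0.0694) and Cyp4f15 (0.11 ± 0.053; adjusted p = 0.131) did not pass, although Cyp4f14 did without the arrays that stood apart and ZT19 (0.22, adjusted p = 0.0123). Cyp2a12, a steroid hydroxylase, was lower, with all 12 TSR livers below the control median: it ranged between 4233 and 5116 (median 4787) in TSR arrays and between 4730.1 and 5689.9 (median 5151) in control arrays (-0.12 ± 0.038; adjusted p = 0.0259). When all 24261 probe sets with a symbol were tested, Cyp2a12 no longer passed (adjusted p = 0.067).

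Members that differ between the sexes in mouse liver moved in both directions. Of 6 tested members known as male-biased, 4 passed on average, Cyp2d9 higher and Cyp2u1, Cyp4a12a and Cyp4a12b lower, with a median difference of -0.07 (27.0% of all probe sets passed, 13.8% higher and 13.2% lower). Of 7 tested members known as female-biased, 2 passed, Cyp4a10 and Cyp2c40, both higher, with a median difference of 0.19, a share near that of all probe sets. These lists were drawn up with results of these data known, and the median over all tested probe sets was 0.02.

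At single time points, where 3 TSR livers stood against 3 control livers, between 2 and 8 members passed. An exact permutation test of 3 against 3 cannot go below p = 0.1, so the calls rest on the spread that limma shares over all groups and genes. With the methods' t-test and the same adjustment, 1 member passed at ZT7, and 0 did at each of ZT1, ZT13 and ZT19. The map of differences by time point shows which genes carry each count.

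At ZT1, within the handling window, 2 members passed, both higher in TSR livers (4.76% of members, against 2.75% of all probe sets, 1.69% higher and 1.06% lower). With quantile normalized arrays 2 were higher and 1 lower, and of all calls at ZT1 50.2% were higher, against 61.5% in the authors' scaling. Cyp2j9 signals were 371, 456 and 343 in TSR livers, against 246, 215 and 249 in control livers (0.71 ± 0.11; adjusted p = 0.00195). The lowest TSR liver was well above the highest control liver. Cyp2c54, a pericentral arachidonic acid epoxygenase, had 3730.2, 3472 and 3825 in TSR livers, against 2291, 2919 and 2637 in control livers (0.50 ± 0.12; adjusted p = 0.0315). These groups also did not overlap. The call of Cyp2c54 was lost without any 1 of TSR replicates 1, 2 and 3 and control replicates 1 and 3 (adjusted p 0.0507 to 0.129). Without TSR ZT1 replicate 3, control ZT7 replicate 3 and all ZT19 arrays, its adjusted p was 0.101, and 1 member passed at ZT1. The count was also 1 without TSR ZT1 replicate 1, without TSR ZT1 replicate 3 and without control ZT1 replicate 3. Signals of the 2 groups did not overlap for 22 of 42 members at ZT1 (52.4%, against 28.8% of all probe sets), and 20 of these were higher in TSR livers. The direction of such gaps over all probe sets was not counted, at this or the other times. Counts of gaps and summed signals were taken in the authors' scaling only, and near-identical members are not independent readings. The summed signal of all 70 members at ZT1 was 136976 to 141242 in TSR livers and 124889 to 129239 in control livers.

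At ZT7, shortly after the handling window, 6 members passed (14.3%, against 14.9% of all probe sets, 7.52% higher and 7.34% lower), of which 3 were higher and 3 lower in TSR livers. With quantile normalized arrays the split was 2 higher and 5 lower, and of all calls at ZT7 36.8% were higher, against 50.6% in the authors' scaling. Cyp2u1 signals were 1232, 1108 and 1039 in TSR livers, against 1994, 1920.0 and 2207 in control livers (-0.86 ± 0.13; adjusted p = 0.00126). Cyp2j9 signals were 219, 220.3 and 224 in TSR livers, against 359.7, 369 and 367 in control livers (-0.73 ± 0.11; adjusted p = 0.00126), the reverse of ZT1. Both genes thus had every TSR liver far below every control liver at this time.

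Cyp3a25, a testosterone hydroxylase, was also lower at ZT7, with 4482, 5317 and 5589 in TSR livers, against 6097, 6478 and 7061 in control livers (-0.36 ± 0.099; adjusted p = 0.023). Its second probe set gave -0.43 (adjusted p = 0.00893). The call of Cyp3a25 was lost without any 1 of TSR replicate 1 and control replicate 3 (adjusted p 0.102 to 0.118). Cyp2b10, the classical CAR target induced by phenobarbital, was higher, with 182, 147 and 121 in TSR livers, against 83.1, 87.8 and 66.3 in control livers (0.91 ± 0.30; adjusted p = 0.0437). The groups did not overlap. The call of Cyp2b10 was lost without any 1 of TSR ZT7 replicates 1, 2 and 3, control ZT7 replicates 1, 2 and 3, control ZT13 replicate 2 and control ZT19 replicate 2 (adjusted p 0.0513 to 0.152). It was also lost when 16 was added to each signal before the log (adjusted p = 0.0502), with quantile normalization (adjusted p = 0.0754) and without the arrays that stood apart (adjusted p = 0.125).

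Cyp4b1, which bioactivates furans and hydroxylates short fatty acids, had 254, 245 and 272 in TSR livers, against 189, 192 and 166 in control livers (0.50 ± 0.12; adjusted p = 0.0106). Cyp2d10 had 3772, 3555 and 3894 in TSR livers, against 3045, 3174 and 2168 in control livers (0.44 ± 0.11; adjusted p = 0.0149). Control ZT7 replicate 3 had the lowest Cyp2d10 signal of that group, and without it 2 members passed at ZT7. The call of Cyp2d10 was lost without any 1 of TSR replicate 3 and control replicate 3 (adjusted p 0.0557 to 0.0858). The call of Cyp4b1 was lost without control replicate 3 (adjusted p 0.0571). Without TSR ZT1 replicate 3, control ZT7 replicate 3 and all ZT19 arrays, 3 members passed at ZT7, and Cyp3a25 (adjusted p = 0.121) and Cyp2d10 (adjusted p = 0.09) were lost together with Cyp2b10. The groups did not overlap for 15 members at ZT7 (35.7%, against 38.5% of all probe sets), 9 of them higher in TSR livers.

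At ZT13, soon after dark onset, 8 members passed (19.0%, against 17.9% of all probe sets, 8.62% higher and 9.24% lower), with 6 higher and 2 lower in TSR livers. With quantile normalized arrays 6 were higher and 3 lower, and of all calls at ZT13 33.5% were higher, against 48.3% in the authors' scaling. Cyp4a10 signals were 2483, 2780.1 and 2057 in TSR livers, against 806, 1134 and 920.4 in control livers (1.36 ± 0.40; adjusted p = 0.0271), or 2.56-fold. Cyp4a31 had 727, 880.2 and 919.6 in TSR livers, against 193, 315 and 305 in control livers (1.66 ± 0.44; adjusted p = 0.0178), or 3.17-fold. The lowest TSR liver had 1.81 times the Cyp4a10 signal and 2.31 times the Cyp4a31 signal of the highest control liver. At ZT1 the groups were apart too, with differences of 0.87 for Cyp4a10 (adjusted p = 0.241) and 0.95 for Cyp4a31 (adjusted p = 0.245) that did not pass. At ZT7 and ZT19 the groups overlapped for both genes. The treatment by time test did not pass for Cyp4a10 (adjusted p = 0.331) or Cyp4a31 (adjusted p = 0.246). The call of Cyp4a10 was lost without any 1 of TSR replicates 1 and 2 and control replicates 1 and 3 (adjusted p 0.0503 to 0.0861). The call of Cyp4a31 was lost without control replicate 1 (adjusted p 0.0733). With array weights neither call was kept (adjusted p = 0.0805 for Cyp4a10 and 0.0598 for Cyp4a31). Without a filter that of Cyp4a10 was lost too (adjusted p = 0.0541). The second Cyp4a10 probe set differed by 0.99 at this time (adjusted p = 0.0512). Cyp4a14 had 895, 314 and 394 in TSR livers, against 178, 326 and 161 in control livers and did not pass (1.19 ± 0.93; adjusted p = 0.372).

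The Cyp4f genes Cyp4f14 and Cyp4f13 were also higher at ZT13. Cyp4f14 had 2616, 2908 and 3377 in TSR livers, against 2184, 2322 and 2192 in control livers (0.40 ± 0.12; adjusted p = 0.0287). Cyp4f13 had 956, 1091 and 1129 in TSR livers, against 862, 820.3 and 841 in control livers (0.33 ± 0.097; adjusted p = 0.0274). In both genes every TSR liver exceeded every control liver. The call of Cyp4f14 was lost without any 1 of TSR replicates 2 and 3 and control replicates 1, 2 and 3 (adjusted p 0.0511 to 0.11). The call of Cyp4f13 was lost without any 1 of TSR replicates 2 and 3 and control replicates 1, 2 and 3 (adjusted p 0.0599 to 0.0845). Cyp2d10 had 3852, 4257 and 3415 in TSR livers, against 2877, 2738 and 3079 in control livers (0.40 ± 0.11; adjusted p = 0.0214), and Cyp2d9 had 3903, 4765 and 4439 in TSR livers, against 3536, 3595 and 3757 in control livers (0.26 ± 0.081; adjusted p = 0.0324). The call of Cyp2d10 was lost without any 1 of TSR replicate 2 and control replicates 1 and 2 (adjusted p 0.0605 to 0.0746). The call of Cyp2d9 was lost without any 1 of TSR replicates 2 and 3 and control replicates 1, 2 and 3 (adjusted p 0.0589 to 0.112). With array weights the calls of Cyp4f13 (adjusted p = 0.0624) and Cyp2d9 (adjusted p = 0.127) were lost. Without a filter those of Cyp4f14 (adjusted p = 0.0609), Cyp4f13 (adjusted p = 0.0615) and Cyp2d9 (adjusted p = 0.0734) were lost.

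The 2 genes lower at ZT13 were Cyp2j6 and Cyp2u1. Cyp2j6 had 991, 1185 and 932 in TSR livers, against 1335, 1319.6 and 1413 in control livers (-0.39 ± 0.097; adjusted p = 0.0119). Cyp2u1 had 1258, 1135 and 910.2 in TSR livers, against 1791, 1260.1 and 1367 in control livers (-0.42 ± 0.13; adjusted p = 0.0324). The groups of both genes were apart, for Cyp2u1 by a narrow gap. In all, the groups did not overlap for 18 members at ZT13 (42.9%, against 33.9% of all probe sets), 11 of them higher in TSR livers. The ZT13 count leaned on single livers: it was 2 without TSR replicate 2, 5 without TSR replicate 3, 1 without control replicate 1, 4 without control replicate 2 and 3 without control replicate 3. The call of Cyp2u1 was lost without any 1 of TSR replicates 2 and 3 and control replicates 1 and 3 (adjusted p 0.0523 to 0.165). It was also lost with array weights (adjusted p = 0.0639) and without a filter (adjusted p = 0.067).

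At ZT19, in the dark phase, 4 members passed (9.52%, against 14.9% of all probe sets, 8.96% higher and 5.95% lower), 2 higher and 2 lower in TSR livers. All control arrays of ZT19 were among the arrays that stood apart, and its TSR arrays were not. That split and TSR cannot be told apart at ZT19, and no run without those arrays was possible. Cyp2j9 was higher again, with 386, 497 and 413 in TSR livers, against 343, 311 and 309.9 in control livers (0.42 ± 0.11; adjusted p = 0.0174). Cyp4f15 had 2048, 2003 and 1846 in TSR livers, against 1412, 1406 and 1599 in control livers (0.42 ± 0.11; adjusted p = 0.0171). Neither pair of groups overlapped. The call of Cyp2j9 was lost without any 1 of TSR replicate 2 and control replicates 2 and 3 (adjusted p 0.0623 to 0.0674). The call of Cyp4f15 was lost without any 1 of TSR replicate 1 and control replicates 1 and 2 (adjusted p 0.0511 to 0.0682).

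Cyp2j6 had 1326, 1226 and 1001 in TSR livers, against 1497, 1510.0 and 1514 in control livers (-0.36 ± 0.097; adjusted p = 0.0214). Cyp2f2, the periportal naphthalene-oxidising enzyme, had 8528, 8572 and 7861 in TSR livers, against 9663, 9801 and 9872 in control livers (-0.23 ± 0.069; adjusted p = 0.0306). Again every TSR liver lay below every control liver. The groups did not overlap for 13 members at ZT19 (31%, against 40.8% of all probe sets), 6 of them higher in TSR livers. The ZT19 count was 2 without TSR replicate 1, 7 without TSR replicate 2, 2 without TSR replicate 3 (the liver with high acinar markers), 1 without control replicate 1, 0 without control replicate 2 and 1 without control replicate 3. The call of Cyp2j6 was lost without any 1 of TSR replicate 3 and control replicates 1, 2 and 3 (adjusted p 0.0588 to 0.089). The call of Cyp2f2 was lost without any 1 of TSR replicates 1 and 3 and control replicates 1, 2 and 3 (adjusted p 0.0523 to 0.0922).

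The size of the TSR difference itself varied between the time points for 6 members (14.3%, against 20.2% of all probe sets). Cyp2j9 stood first, with differences of 0.71, -0.73, 0.17 and 0.42 from ZT1 to ZT19 (adjusted p of the treatment by time test = 0.000146), and this call held under all 32 alternative settings run for it. Cyp3a25 (0.25, -0.36, -0.05 and 0.08; adjusted p = 0.027) and Cyp2d13 (0.34, -0.31, 0.08 and -0.03; adjusted p = 0.0275) had the same order of signs at ZT1 and ZT7 as Cyp2j9. Cyp2d13 signals at ZT1 were 2518, 2726 and 2841 in TSR livers, against 2267, 2197 and 1916 in control livers, and at ZT7 2019.8, 2094 and 2427 in TSR livers, against 2473, 2772 and 2870.2 in control livers. The groups were apart at both times, in opposite directions, though neither time passed alone. At ZT1, Cyp3a25 signals were 5856, 6157 and 6534 in TSR livers, against 5093, 5392 and 5064 in control livers, again without overlap. The call of Cyp3a25 was lost without TSR ZT7 replicate 1 (adjusted p 0.0587). The call of Cyp2d13 was lost without any 1 of TSR ZT1 replicate 3, TSR ZT7 replicates 1 and 2 and control ZT1 replicate 3 (adjusted p 0.0521 to 0.0569).

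Cyp4b1 (-0.26, 0.50, 0.10 and 0.24; adjusted p = 0.0224) and Cyp4f15 (-0.23, 0.17, 0.07 and 0.42; adjusted p = 0.0302) had the opposite sign at ZT1 from that at later times. Cyp4f15 signals at ZT1 were 1884, 1799 and 1509.6 in TSR livers, against 2045, 2131 and 1878 in control livers. Cyp2r1, the vitamin D 25-hydroxylase, had differences of -0.41, -0.07, -0.31 and 0.26 (adjusted p = 0.0262). Its signals at ZT1 were 411, 457 and 348 in TSR livers, against 522, 495 and 592 in control livers, and at ZT19 449, 502 and 481 in TSR livers, against 394, 396 and 403 in control livers. Cyp2r1 was thus lower at ZT1 and higher at ZT19 in every TSR liver. The call of Cyp2r1 was lost without any 1 of TSR ZT19 replicate 2 and control ZT19 replicates 1, 2 and 3 (adjusted p 0.0507 to 0.0537). The call of Cyp4f15 was lost without any 1 of TSR ZT1 replicate 3, TSR ZT19 replicates 1 and 2, control ZT1 replicates 1 and 2 and control ZT19 replicates 1 and 2 (adjusted p 0.0537 to 0.0715). The call of Cyp4b1 was lost without control ZT1 replicate 2 (adjusted p 0.0559). Without TSR ZT1 replicate 3, control ZT7 replicate 3 and all ZT19 arrays, 1 member (Cyp2j9) passed.

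**Figure D3:**
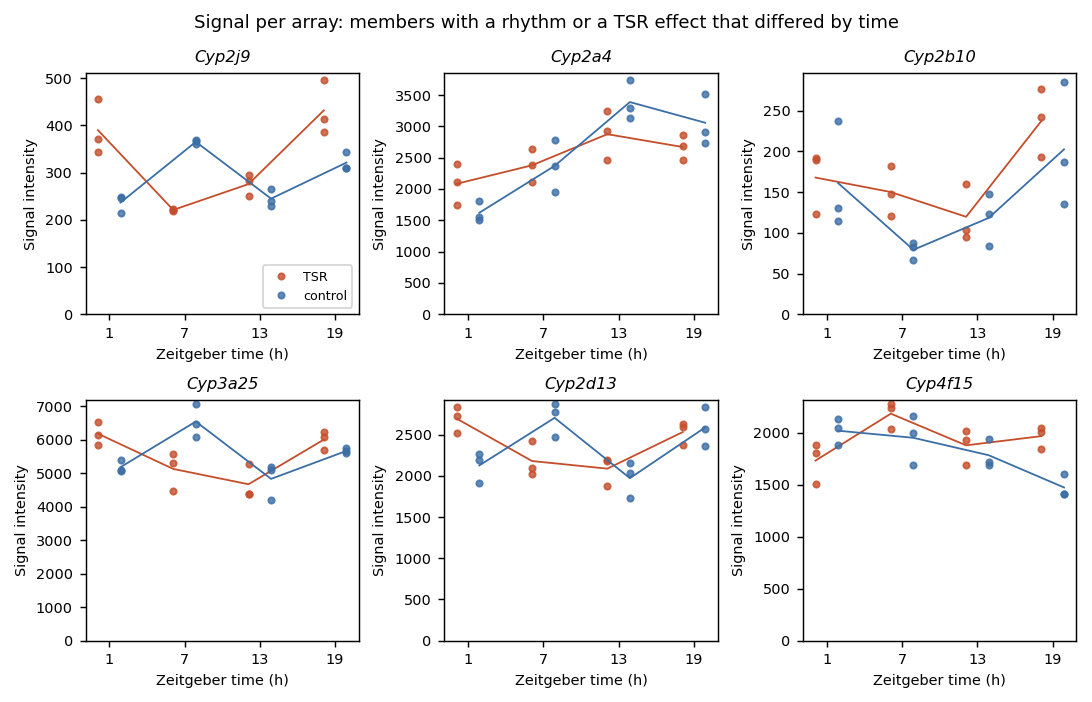
Signal intensity of 6 P450 genes in every liver array by Zeitgeber time (h), with 1 point per liver (orange TSR, blue control, drawn to the left and right of the sampling time) and lines through the group means of 3. Cyp2j9 at ZT7 was 219 to 224 in TSR livers and 359.7 to 369 in control livers, and Cyp2a4 ran from its low at ZT1 to its high at ZT13 in both groups.

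Few members were called rhythmic by a 24 h cosine curve over the 12 arrays of each group. In TSR livers 1 member was called rhythmic (2.38%, against 2.63% of all probe sets), and in control livers 3 were (7.14%, against 12.6%). A test of any difference among the 4 times, without a curve, called 1 member in TSR livers (6.71% of all probe sets) and 12 in control livers (43.2% of all probe sets). The median fitted amplitude, the height of the curve above its mean on the log2 scale, was 0.11 over the members in TSR livers (0.14 over all probe sets) and 0.09 in control livers (0.13 over all probe sets). The rhythmic gene of TSR livers was Cyp2j9, with an amplitude of 0.54, its highest mean at ZT19 and its lowest at ZT7 (adjusted p = 0.00611). In control livers its amplitude was 0.10 (adjusted p = 0.793), where ZT7 and ZT19 livers were both above ZT1 and ZT13 livers, a pattern that a 24 h curve does not describe.

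Cyp2a4, a steroid 15-alpha-hydroxylase and known target of the PAR bZIP factor Dbp in mouse liver, was rhythmic in control livers with an amplitude of 0.56 and its highest mean at ZT13 (adjusted p = 0.00259). In TSR livers its amplitude was 0.25, also with the highest mean at ZT13 (adjusted p = 0.132). From ZT1 to ZT19 TSR livers had 2118, 2392 and 1739 at ZT1, 2388, 2105 and 2642 at ZT7, 2923, 2458 and 3243 at ZT13 and 2686, 2459 and 2867 at ZT19. Control livers had 1801, 1504 and 1556 at ZT1, 1946, 2786 and 2375 at ZT7, 3294, 3133 and 3736 at ZT13 and 2739.7, 3523 and 2909.9 at ZT19. The control range between ZT1 and ZT13 was thus wider than the TSR range, but the difference in rhythm did not pass (adjusted p = 0.241). No probe set was named for Cyp2a5, another Cyp2a gene, and whether that of Cyp2a4 also reads it was not tested.

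Cyp2b10 was rhythmic in control livers with an amplitude of 0.68 and its highest mean at ZT19 (adjusted p = 0.0337), and had 0.42 with the same time of highest mean in TSR livers (adjusted p = 0.212). Cyp2u1 had an amplitude of 0.29 in control livers with its highest mean at ZT7 (adjusted p = 0.0447), and 0.01 in TSR livers (adjusted p = 0.994). From ZT1 to ZT19 Cyp2u1 signals were 1061, 1110.5 and 1131 at ZT1, 1232, 1108 and 1039 at ZT7, 1258, 1135 and 910.2 at ZT13 and 1097, 1285 and 974 at ZT19 in TSR livers, and 1507, 1394 and 1505 at ZT1, 1994, 1920.0 and 2207 at ZT7, 1791, 1260.1 and 1367 at ZT13 and 1404, 1324 and 1388 at ZT19 in control livers. The control call of Cyp2a4 held under all 32 settings run for it, with adjusted p-values of at most 0.0106. The call of Cyp2b10 was lost without any 1 of control ZT7 replicates 1 and 2 and control ZT19 replicates 2 and 3 (adjusted p 0.0747 to 0.101). The call of Cyp2u1 was lost without any 1 of control ZT1 replicates 1, 2 and 3, control ZT7 replicates 1, 2 and 3 and control ZT19 replicates 1, 2 and 3 (adjusted p 0.0522 to 0.124). Without TSR ZT1 replicate 3, control ZT7 replicate 3 and all ZT19 arrays, neither control call passed (adjusted p = 0.216 for Cyp2b10 and adjusted p = 0.116 for Cyp2u1), and with quantile normalized arrays the values were 0.0508 for Cyp2b10 and 0.0801 for Cyp2u1. A difference in rhythm between the groups was called for 0 members by limma (0.375% of all probe sets), with 5 members at an unadjusted p under 0.05. Cyp2j9 was nearest (adjusted p = 0.0611), and the treatment by time test, which uses no curve, called the 6 members named above.

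The promoters of the rhythmic members were set side by side, since PAR bZIP factors act through D-box sites. RefSeq promoter windows (GRCm38.p6) were at hand for 55 of the 70 members, and the 250 bases before each start were searched on both strands for the D-box words TTATGTAA and TTACGTAA and for the related word TTATGCAA. The first 2 words were in none of the member windows, against 0.819% and 0.113% of 32851 promoter windows. TTATGCAA was in 5 of the 55 member genes, or 8.06% of their 62 windows, against 0.694% of all windows. Both genes called rhythmic in control livers for which a window was at hand, Cyp2a4 and Cyp2b10, held it, and the others were Cyp2b19, Cyp2b23 and Cyp4f14. The window of Cyp2j9, the gene called rhythmic in TSR livers, did not hold it. The stretches around it are shown, each read 5′ to 3′ toward the gene, with capitals marking the reverse complement TTGCATAA:
Cyp2b10, chr7:25897584-25897623, plus strand: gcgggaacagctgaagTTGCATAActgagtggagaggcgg
Cyp2a4, chr7:26307106-26307145, plus strand: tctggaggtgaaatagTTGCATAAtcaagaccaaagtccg
Cyp2b23, chr7:26686492-26686531, minus strand: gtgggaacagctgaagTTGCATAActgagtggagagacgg
Cyp2b19, chr7:26757086-26757125, plus strand: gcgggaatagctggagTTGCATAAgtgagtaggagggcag
Cyp4f14, chr17:32917114-32917153, minus strand: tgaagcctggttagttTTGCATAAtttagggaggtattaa
The word ended 33 to 78 bases before the start site in these genes. The Cyp2b windows resemble each other around it, as gene copies do. Cyp2b19 and Cyp2b23 had signals below the filter, and Cyp4f14 was not called rhythmic in either group (adjusted p = 0.79 in TSR livers and 0.163 in control livers). Of the E-box word CACGTG, which the core clock factors bind, 1 member window had a copy (1.61% of member windows, against 6.02% of all windows), that of Cyp2j6, with the word in capitals:
Cyp2j6, chr4:96553674-96553711, minus strand: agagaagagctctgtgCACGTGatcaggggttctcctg
The nuclear receptor core word AGGTCA was in 24.2% of member windows (14.0% of all), the PPAR response element DR1, a direct repeat of it, in none (0.0335% of all), the STAT word TTCNNNGAA in 6.45% (7.02% of all) and GCGTG, the core of AHR sites, in 19.4% (28.2% of all). Such matches describe the letters of these windows only.

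Of the genes that P450 enzymes work with, 3 of 9 electron donors and partners passed in the mean comparison (27.0% of all probe sets did). Cyb5b, the outer mitochondrial membrane cytochrome b5, was lower (-0.22, adjusted p = 0.00142). Cyb5a, the microsomal cytochrome b5, was higher (0.19, adjusted p = 0.00709), as was Fdxr, the adrenodoxin reductase of mitochondrial P450s (0.16, adjusted p = 0.0163). Por itself differed by 0.04 (adjusted p = 0.735).

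Of 25 tested receptors and factors known to act on P450 genes, 7 passed on average, 4 higher and 3 lower, a share near the 27.0% of all probe sets. PXR (Nr1i2) was higher (0.21, adjusted p = 0.00169). The coactivator Ncoa1 (-0.25, adjusted p = 0.00413) and Hlf (-0.24, adjusted p = 0.00792) were lower. At ZT1, 2 of the 25 passed (2.75% of all probe sets did), both higher, one of them CAR (Nr1i3), through which Cyp2b10 is induced (1.11, adjusted p = 0.0126). At ZT7, 8 of the 25 passed (14.9% of all probe sets did), 6 higher and 2 lower. Ahr itself was lower at that time (-0.93, adjusted p = 0.00376), while PXR (0.50, adjusted p = 0.00376) and Nr0b2, the corepressor SHP (0.83, adjusted p = 0.0179), were higher. The Nr1i3 difference at ZT7, where Cyp2b10 was higher, was -0.56 (adjusted p = 0.0956). At ZT13, 5 of the 25 passed (17.9% of all probe sets), 1 higher and 4 lower, and at ZT19 2 did (14.9% of all probe sets), both higher. In control livers 8 of the 25 were rhythmic (12.6% of all probe sets were), including Dbp (adjusted p = 4.8e-05), Stat5b (adjusted p = 0.000669), Tef (adjusted p = 0.000742) and Hlf (adjusted p = 0.00285). In TSR livers 2 of 25 were (2.63% of all probe sets), Dbp (adjusted p = 0.0231) and Tef (adjusted p = 0.026). A difference in rhythm between the groups was called for 0 of the 25.

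Beside the Cyp4a genes, 14 other PPAR alpha targets were tested. On average their adjusted p-values lay between 0.0552 and 0.987, and their median difference was 0.02, the same as over all probe sets. At ZT13, 3 of 14 were higher in TSR livers (17.9% of all probe sets passed there): the acyl-CoA thioesterase Acot1 (0.86, adjusted p = 0.0214), the peroxisomal thiolase Acaa1b (0.64, adjusted p = 0.0157) and the carnitine carrier Slc25a20 (0.26, adjusted p = 0.0361). Ppara had a ZT13 difference of 0.05 (adjusted p = 0.683). At ZT1 the listed genes Pdk4 (-1.46, adjusted p = 0.00317) and Plin2 (-0.52, adjusted p = 0.0188) were lower.

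Of 13 other tested CAR and PXR targets, 3 passed on average, where 27.0% of all probe sets did: the export pumps Abcc4 (-0.36, adjusted p = 0.0018) and Abcc2 (-0.14, adjusted p = 0.0223) were lower and the glutathione transferase Gsta1 (0.33, adjusted p = 0.0274) was higher. Of the AHR targets other than P450 genes, 1 was tested, Tiparp, with differences of 0.72 at ZT7 (adjusted p = 0.0392) and 0.87 at ZT19 (adjusted p = 0.0187). The AHR target Cyp1a2 differed at those times by 0.10 (adjusted p = 0.481) and 0.05 (adjusted p = 0.72). Both other family 1 genes, the AHR-induced Cyp1a1 and Cyp1b1, were below the filter: Cyp1a1 signals were 39.0 to 64.3 in TSR arrays and 40.2 to 64.1 in control arrays, and Cyp1b1 signals were 55.5 to 90.2 in TSR arrays and 57.3 to 94.8 in control arrays.

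Of the 28 members below the filter, 2 passed in at least 1 comparison when all 24261 probe sets with a symbol were tested. Of these probe sets, 2608 passed on average, 1076 at ZT7 and 1313 at ZT13. Cyp2s1, an extrahepatic P450 in the main, ranged between 75.6 and 104 (median 88.4) in TSR arrays and between 66.9 and 84.1 (median 73.6) in control arrays, with a mean difference of 0.23 (adjusted p = 0.00621) and a ZT7 difference of 0.49 (adjusted p = 0.0138). Of 12 TSR livers, 8 lay above every control liver. Cyp2d34 had 108.98, 103 and 96.4 at ZT13 in TSR livers, against 60.9, 75.5 and 66 in control livers, a difference of 0.61 (adjusted p = 0.0219). The mean signals of both genes, 81.9 for Cyp2s1 and 78.6 for Cyp2d34, were below the median of all probe sets.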

How the data were processed

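Liver RNA of 24 mice (3 per treatment and time point, 8 groups) was hybridised to Affymetrix Mouse Gene 1.0 ST arrays. The authors deposited signal intensity per probe set after normalization with the d-Chip software, with no version or steps named in the sources used here. The deposited liver values were used as given, and 2 deposited tables held identical liver values. A further 24 arrays labelled white adipose tissue entered no test. A total of 32 columns were not used, namely 24 detection p-values and 8 group calls. Precision is limited by the number of arrays.

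Signals were floored at 1 and taken to log2. Probe sets with a symbol were kept where their mean log2 signal exceeded the median over all probe sets, and were tested with limma 3.58.1 in R 4.3.3 (8 group means, contrasts averaged over the 4 time points, at each time point and for treatment by time; 24 h cosine curves per treatment and for their difference), with Benjamini-Hochberg adjustment and a threshold of 0.05. Scripts were tested on simulated data. Values given as ± are SE, with 3 livers per group and time.

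The members and gene lists were chosen with earlier results of these data known. Genes named with values in every array had the 5 highest rises or falls past the threshold in a comparison of levels, the 5 highest amplitudes called rhythmic, or a called treatment by time test. The 3 members with the highest signal in each family and up to 4 genes of each list were named too, and Por, Ppara, Cyp4a14, Cyp2s1 and Cyp2d34 were named after their values were seen. Alternatives were no filter, a filter at a signal of 200.0, 16 added to each signal, quantile normalization, the second deposited table, all probe sets of a gene, array weights, a replicate block, arrays left out, the methods' t-test and time points without a curve. Promoter windows (250 bases before each start) and positions came from RefSeq tables of GRCm38.p6.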

Additional observations from a re-analysis of the deposited data

Results flagged for a closer look

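Effects of TSR that differed between the 4 time points were picked out by the treatment by time test in limma (3 livers per treatment and time). Cyp2j9 had an adjusted p of 0.000146, with TSR livers higher at ZT1 and ZT19 and lower at ZT7. Cyp4b1 (adjusted p = 0.0224) was higher in TSR livers at ZT7. Cyp2r1 (adjusted p = 0.0262) was below the control livers at ZT1 and above them at ZT19 in all 3 TSR livers. Cyp3a25 (adjusted p = 0.027) and Cyp2d13 (adjusted p = 0.0275) were above the control livers at ZT1 and below them at ZT7 in all 3 TSR livers. Cyp4f15 (adjusted p = 0.0302) was higher in TSR livers at ZT19.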

How the results depend on the processing

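No called single-gene value changed sign under the settings run. Over 54 single-gene results and 11 settings other than leaving out 1 array, 418 of 494 values stayed on their side of the threshold, 69 lost their call and 7 gained one, and with 1 array left out 1176 of 1296 stayed, 113 lost their call and 7 gained one. Among members, Cyp4f14 passed on average without TSR ZT13 replicate 1 (adjusted p = 0.0427), TSR ZT19 replicate 2 (adjusted p = 0.02) or control ZT7 replicate 3 (adjusted p = 0.0353), Cyp2e1 without TSR ZT1 replicate 3 (adjusted p = 0.0478) or TSR ZT13 replicate 1 (adjusted p = 0.0184), and Cyp2c44 without TSR ZT13 replicate 3 (adjusted p = 0.0167) or TSR ZT19 replicate 1 (adjusted p = 0.0443). Counts of members called that moved were, without a filter, 1 at ZT1, 4 at ZT13, 3 for treatment by time and 1 for the control rhythm. The stricter filter gave 5 at ZT1 and 1 for the rhythm difference. Quantile normalization gave 1 for the control rhythm. Array weights gave 14 at ZT1, 3 at ZT13, 19 at ZT19 and 16 for treatment by time. Without the arrays that stood apart and ZT19, which leaves fewer arrays, 1 passed at ZT1, 3 at ZT7, 1 for treatment by time and 1 for the rhythm difference. The methods' t-test gave 1 at ZT7 and 0 at each of ZT1, ZT13 and ZT19. Time points without a curve gave 12 members in control livers and 6 for the difference between treatments. The cause of these shifts was not tested. With 1 array left out, counts ran between 14 and 18 on average, 1 and 3 at ZT1, 2 and 8 at ZT7, 1 and 9 at ZT13, 0 and 7 at ZT19, 4 and 9 for treatment by time, 1 and 1 for the TSR rhythm, 1 and 6 for the control rhythm and 0 and 1 for the rhythm difference. For the control rhythm the count was 1 without control ZT7 replicates 1 or 2 or control ZT19 replicates 2 or 3 and 6 without control ZT7 replicate 3, and for the rhythm difference it was 1 without TSR ZT19 replicate 3, TSR ZT13 replicate 3, control ZT19 replicate 1 or control ZT13 replicate 3. Same-numbered arrays of different groups did not all deviate together (median r 0.0278, 34 of 84 pairs above 0.1), and for arrays with other numbers the median r was -0.0346, with 47 of 168 pairs above 0.1. With the replicate number as a block the counts were 16 on average, 2 at ZT1, 5 at ZT7, 8 at ZT13, 4 at ZT19, 6 for treatment by time, 1 for the TSR rhythm, 2 for the control rhythm and 0 for the rhythm difference, and among member calls those of Cyp2b10 at ZT7 (adjusted p = 0.0513) and of the Cyp2u1 control rhythm (adjusted p = 0.0598) did not pass.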

Other observations

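P450 signals near those of liver were also read on arrays labelled white adipose tissue. Cyp2e1 lay between 19.3 and 9567 over these 24 arrays, with a median of 7732. In 17 of the 24 it was above the lowest liver array divided by 2, and in the other 7 it was below that. The same split of 17 and 7 held for Cyp2f2, Cyp1a2, Cyp3a25, Cyp4a12a and Cyp2u1, for Cyp4b1 it was 18 and 6, and for Cyp2j9 and Cyp1b1 it was 23 and 1. No value of these arrays enters a comparison here, and whether both sets of arrays were normalized together is not given in the sources used here.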
